A study of Rattus norvegicus with 18 samples.

Results

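The genes described here are 46 listed genes of mitochondrial and peroxisomal fatty acid oxidation, omega hydroxylation and lipolysis, with the nuclear receptor Ppara and its coactivator. Each gene was taken by its symbol and read from the brightest probe set that names only that gene. By this rule 45 of the 46 were measured, out of 22084 genes on the array. Cyp4a3 was left out because its probe set also names Cyp4b1. The kidneys came from SD rats. Each group had 3 arrays, labelled as biological replicates. The 6 groups were CdCl2 and normal saline at 1 day, CdCl2 and normal saline at 6 weeks, and CdCl2 and normal saline at 12 weeks. Saline animals of the same time are the reference for each cadmium group, and no genetic change was described in either. The labels give neither the dose, the route and the hour of harvest nor the age and sex of the animals. The whole kidney RNA holds every cell type of the organ, so fewer cells of a type and less RNA per cell cannot be told apart.

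Fatty acids are a main fuel of the proximal tubule. They are taken up, activated to acyl-CoA, carried into mitochondria through the carnitine shuttle and shortened step by step, with electrons passed on through the electron transfer flavoprotein. Peroxisomes shorten very long and branched chains, and the Cyp4a enzymes start omega oxidation in the endoplasmic reticulum. The nuclear receptor Ppara, paired with Rxra, induces many genes of all these routes when fatty acids or fibrates bind it, as is well known in rodent liver and kidney.

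All values are log2 signals as the authors deposited them, and each change is cadmium minus saline at the same time. Since the authors' scaling is not stated, a change is a difference of log2 signals and not a calibrated fold. Array medians lay between 4.03 and 4.26, and the highest value, 19.93, was shared by 9 arrays. A gene was taken as above background where its mean exceeded 4.22, the level below which 95% of 1276 odorant and vomeronasal receptor genes lay, and 13985 genes did. Of the members 44 were above it. Fabp1 was at background, and Cyp4a2 sat at the ceiling of the scale. By their means over the 18 arrays, the 10 proximal tubule markers were above background, while the 3 measured adrenal markers and 3 of 6 liver markers were not. A gene was called where limma's moderated test, fitted over all 22084 genes and 18 arrays, gave a two-sided Benjamini-Hochberg adjusted p under 0.05.

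After 12 weeks of cadmium, most genes of fatty acid oxidation had a lower mean signal than in saline kidneys of that time. The monoacylglycerol lipase gene Mgll was called lower. The difference was below 0 for 40 of 45 members, against 48.9% of all genes. The median over the members was -0.55, against 0.01 over all genes, and single members ranged from -3.74 to 0.26. Mgll was the only member called, and the background was 0.326% of all genes called, or 72 genes, with 64 higher (0.29%) and 8 lower (0.0362%). At an unadjusted p under 0.05, 14 members were lower and none was higher, against 4.43% of all genes lower and 4.6% higher. Without cadmium replicate 1 that count was 7 lower, against 3.06% of all genes, and without cadmium replicate 2 it was 20, against 4.29%. The 3 cadmium arrays lay below all 3 saline arrays for 16 of 45 members, or 35.6%, and above them for none. Over all genes the shares were 7.07% below and 7.92% above. The shared direction describes the list, while the test across all genes passed for 1 member.

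**Figure D1:**
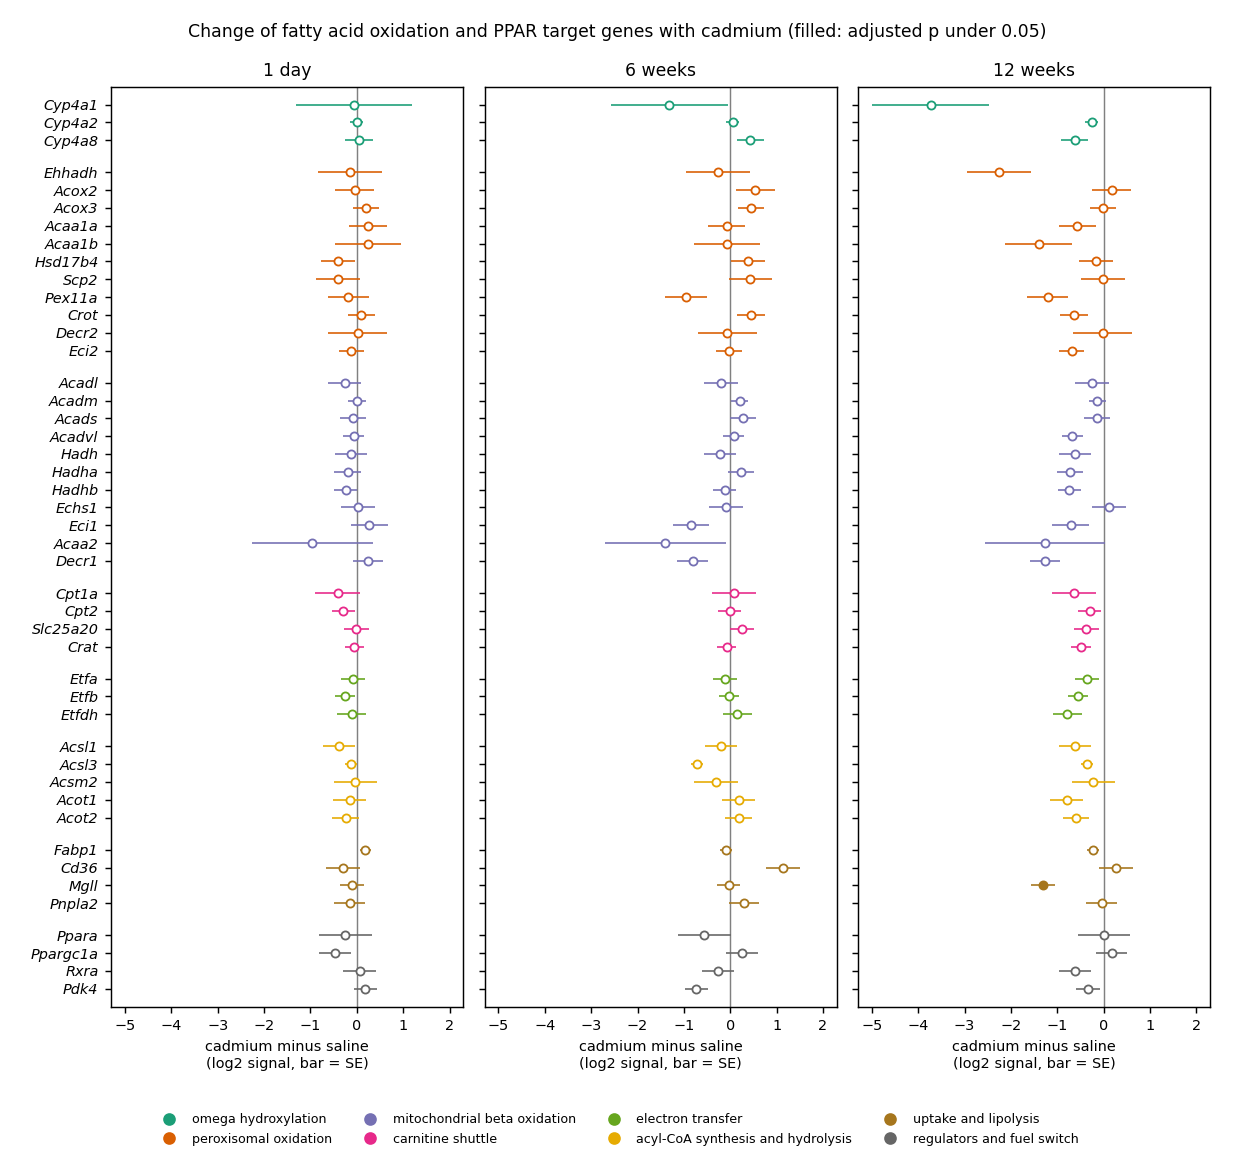
Cadmium minus saline in log2 signal for the 45 measured members at 1 day, 6 weeks and 12 weeks, with 3 arrays per group. Points are limma differences, bars their standard errors, colours the roles of the genes, and the filled point marks the only call, Mgll at 12 weeks with -1.31. At 12 weeks 40 of 45 points lie left of 0.

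Mgll encodes the lipase that splits monoacylglycerols, the last step of releasing fatty acids from stored triglyceride. At 12 weeks its signal was 10.51, 11.11 and 10.95 on the 3 cadmium arrays, against 11.87, 12.52 and 12.11 on the 3 saline arrays. Every cadmium array lay below every saline array, with means of 10.86 ± 0.31 and 12.16 ± 0.33 (SD, n = 3 each). The difference was -1.31 with a standard error of 0.25 (95% interval -1.84 to -0.77) and a limma adjusted p of 0.0432. At 6 weeks the values were 11.19, 11.87 and 11.56 in cadmium kidneys, against 11.68, 11.77 and 11.26 in saline kidneys, a difference of -0.03. At 1 day they were 11.22, 11.44 and 10.49 with cadmium, against 11.27, 11.13 and 11.07 with saline, a difference of -0.10. The groups overlapped at both earlier times. The call at 12 weeks was lost when only the 6 arrays of 12 weeks were fitted (adjusted p = 0.366) and when any array of that time other than saline replicate 1 was left out. In those fits the adjusted p was 0.162, 0.0777 and 0.0702 without cadmium replicates 1, 2 and 3, and 0.18 and 0.141 without saline replicates 2 and 3.

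The Mgll promoter is shown because Mgll was the member called at 12 weeks, and because it alone among the 42 member promoters in the RefSeq table (GRCr8) holds the letters CACGTG, an E-box, which clock and other basic helix-loop-helix factors are known to bind. Windows ran from 250 bases before to 50 bases after the start, both strands were searched, and 6.42% of 33469 promoters hold these letters. The 250 bases before the start, at chr4:122749186-122749435 on the plus strand, have the E-box in capitals.
Mgll: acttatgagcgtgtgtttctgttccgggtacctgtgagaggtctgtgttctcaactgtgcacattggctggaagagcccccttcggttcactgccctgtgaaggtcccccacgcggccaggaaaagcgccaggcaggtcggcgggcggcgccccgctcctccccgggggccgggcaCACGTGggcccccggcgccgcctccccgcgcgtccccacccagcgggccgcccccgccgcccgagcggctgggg
A match of letters is not a binding site, and nothing in these arrays measures binding.

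Of the other genes of uptake and lipolysis, none was called. Pnpla2, the lipase that starts triglyceride breakdown, differed by -0.04 at 12 weeks (95% interval -0.75 to 0.66). Cd36, a fatty acid transporter that is also a macrophage surface protein, had 9.65, 9.57 and 9.72 in cadmium kidneys at 6 weeks, against 8.50, 8.89 and 8.11 in saline kidneys. All 3 cadmium arrays were above all saline arrays, and the difference was 1.15 with a standard error of 0.37, an unadjusted p of 0.00724 and an adjusted p of 0.347. It was the only member higher at an unadjusted p under 0.05 at that time. At 12 weeks Cd36 had 8.86, 10.04 and 8.75 with cadmium, against 8.62, 8.94 and 9.29 with saline, and the groups overlapped. Beside the 6-week values, 7 of 8 macrophage markers were higher with cadmium, with array means of 6.84 to 7.59 in cadmium kidneys and 6.21 to 6.42 in saline kidneys. Of 8 adipose markers 7 were also higher, with array means of 5.27 to 5.60 with cadmium and 4.95 to 5.17 with saline. By their means over the 18 arrays 2 of 8 markers in each of these lists were at background, and none was called. The median difference was 1.32 for the macrophage list and 0.33 for the adipose list. At an unadjusted p under 0.05, 6 macrophage markers and 1 adipose marker were higher and 0 lower, against 5.63% and 4.25% of all genes. All 6 markers of the S3 segment of the proximal tubule and all 3 measured red blood cell markers were higher too. Of these, 4 and 2 were higher at that p. Most markers of the proximal tubule, distal nephron, endothelial, liver and adrenal lists were lower. At that p 2 distal nephron markers and 1 endothelial marker were lower, and 1 proximal tubule and 1 distal nephron marker were higher. The part of any of these cell types in the Cd36 difference was not tested.

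Fabp1, a fatty acid binding protein of liver, had values between 3.08 and 3.64 on all 18 arrays, under the background level. At 1 day it was 3.37, 3.45 and 3.43 with cadmium, against 3.14, 3.48 and 3.08 with saline, so nothing can be read from its order at any time. Its promoter is shown as the only one of the 42 member promoters searched that holds the direct repeat AGGNCANAGGNCA on either strand. This is the form of element that the Ppara and Rxra pair binds, and a response element in the Fabp1 promoter is known from rat liver. No promoter was matched for Cyp4a1, Acadl, Acaa2 and Decr1, so these were not searched. Of all promoters 0.415% hold the direct repeat. The 100 bases before the start are at chr4:104749240-104749339 on the plus strand, with the repeat, read on the minus strand, in capitals.
Fabp1: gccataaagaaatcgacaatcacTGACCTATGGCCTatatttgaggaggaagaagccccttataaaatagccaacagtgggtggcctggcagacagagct
The single hexamer AGGTCA, which overlaps the direct repeat where both occur, stood in 9 of 42 member promoters, or 21.4%, against 16.2% of all promoters. These windows are short, and no match says only that the letters are not there.

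Acsl3 was the member with the smallest p at 6 weeks and over the longer exposures together. It encodes an acyl-CoA synthetase of the endoplasmic reticulum and lipid droplets, which activates long-chain fatty acids. At 6 weeks its signal was 8.71, 8.66 and 8.50 in cadmium kidneys, against 9.20, 9.41 and 9.41 in saline kidneys. At 12 weeks it was 8.72, 8.30 and 8.43 with cadmium, against 9.00, 8.74 and 8.79 with saline. Every cadmium array lay below every saline array at both times. The difference was -0.71 at 6 weeks (standard error 0.13, limma adjusted p = 0.0711) and -0.36 at 12 weeks (adjusted p = 0.386). For the mean of 6 and 12 weeks Acsl3 was lower with cadmium by 0.54 (standard error 0.09, 95% interval -0.73 to -0.35, adjusted p = 0.0164). It was the only member called there, where 0.394% of all genes, or 87 genes, were called, with 75 higher (0.34%) and 12 lower (0.0543%). In that mean 35 of 45 members were lower, against 49.8% of all genes, and 9 were lower and 1 higher at an unadjusted p under 0.05, against 3.95% and 5.01% of all genes. The 9 lower members became 18 without saline replicate 3 of 6 weeks (4.07% of all genes) and 14 without saline replicate 1 of 12 weeks (5.05%). They became 7 without saline replicate 1 (3.68%) or 2 (3.76%) of 6 weeks. Acsl3 had 8.97, 8.74 and 9.01 with cadmium at 1 day, against 9.03, 9.21 and 8.86 with saline, and these groups overlapped. The call for the mean was lost with quantile normalization (adjusted p = 0.0725), without saline replicate 3 of 6 weeks (0.0531) and without cadmium replicate 2 of 12 weeks (0.0541).

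The Acsl3 promoter is shown as that of the other member called. It holds none of the 3 motifs searched, so no base is in capitals. Its 250 bases before the start are at chr9:87563351-87563600 on the plus strand.
Acsl3: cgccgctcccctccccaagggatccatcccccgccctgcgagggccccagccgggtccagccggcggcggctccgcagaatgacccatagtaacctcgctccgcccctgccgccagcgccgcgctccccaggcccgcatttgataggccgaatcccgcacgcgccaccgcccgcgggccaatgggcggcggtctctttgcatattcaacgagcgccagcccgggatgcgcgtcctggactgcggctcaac

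**Figure D2:**
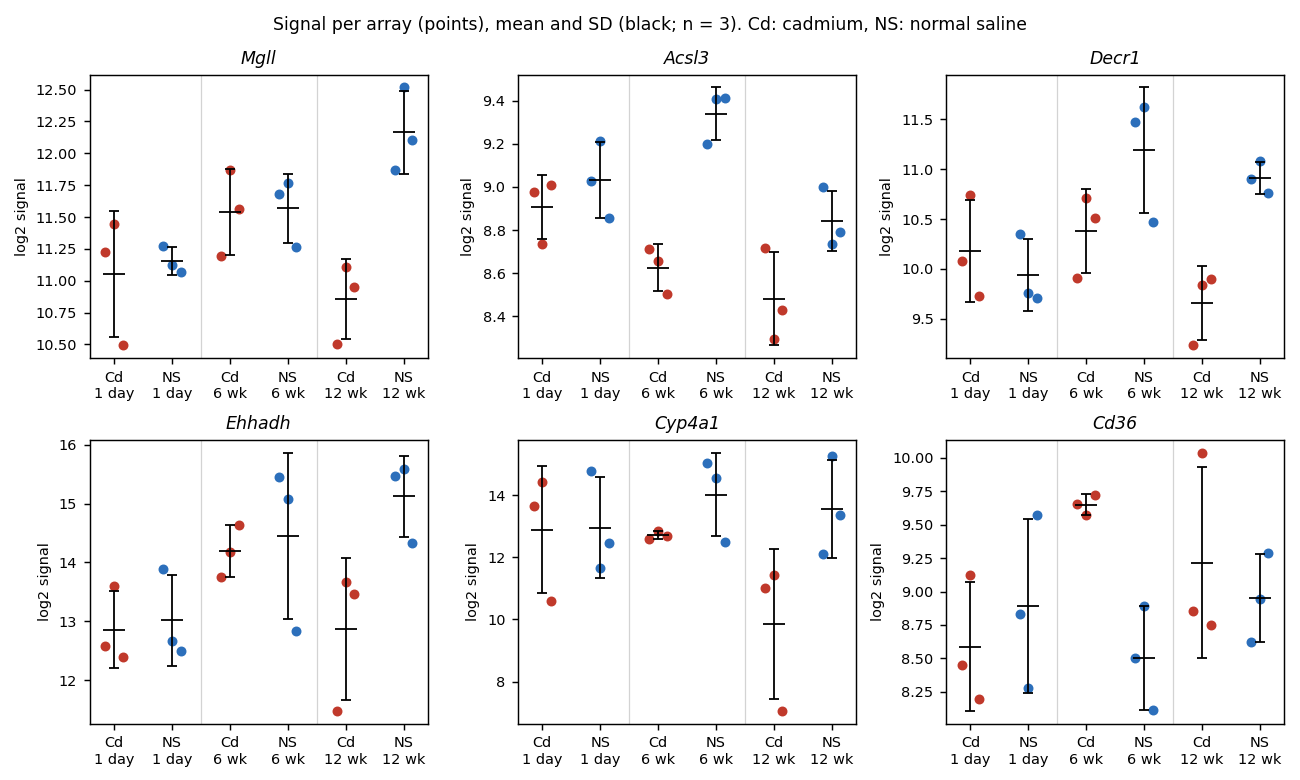
Log2 signal on each array for Mgll, Acsl3, Decr1, Ehhadh, Cyp4a1 and Cd36, by treatment (Cd: CdCl2, red points; NS: normal saline, blue points) and time. Black bars are the mean and SD of 3 arrays. For Mgll the cadmium arrays at 12 weeks lie between 10.51 and 11.11, under the saline arrays at 11.87 to 12.52, and for Acsl3 the groups are apart at 6 and 12 weeks.

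The other acyl-CoA genes were lower at 12 weeks without a call. Acot1, a cytosolic acyl-CoA thioesterase, had 7.57, 8.47 and 8.15 in cadmium kidneys at 12 weeks, against 8.80, 9.19 and 8.61 in saline kidneys, a difference of -0.80 (adjusted p = 0.523). Its mitochondrial relative Acot2 differed by -0.59, also with no overlap of the groups. The sequences of this pair are close, and probes may not tell them apart. Acsl1, the main long-chain synthetase of mitochondria, differed by -0.62 and the medium-chain synthetase Acsm2 by -0.22, both with overlap. At 6 weeks Acot1 and Acot2 both differed by 0.18, while Acsl1 differed by -0.20 and Acsm2 by -0.31.

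In omega hydroxylation, Cyp4a1 had the lowest difference of all members at 12 weeks and also a wide spread. This enzyme, a classical Ppara target of rat liver and kidney, had 11.02, 11.44 and 7.06 in cadmium kidneys at 12 weeks, against 12.11, 15.26 and 13.36 in saline kidneys. No cadmium array reached the saline arrays. The difference was -3.74 with a standard error of 1.25 (95% interval -6.42 to -1.06) and an adjusted p of 0.346. At 6 weeks Cyp4a1 had 12.59, 12.86 and 12.71 with cadmium, against 15.04, 14.55 and 12.50 with saline, a difference of -1.31 with overlap. At 1 day it ranged from 10.59 to 14.45 with cadmium and from 11.65 to 14.78 with saline. Cyp4a8 differed by -0.62 at 12 weeks and by 0.43 at 6 weeks. The cadmium arrays at 12 weeks were 17.53, 18.97 and 18.97, so that the first of them carried that difference, against 19.48, 18.88 and 18.98 with saline. Cyp4a2 stood at 19.18 or above on every array, within 0.75 of the ceiling, where differences are compressed. The Cyp4a genes are close copies, and their probe sets may share signal.

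Among the 11 peroxisomal genes, 10 had a lower mean with cadmium at 12 weeks, against 48.9% of all genes, with a median of -0.57. Of them 3, Ehhadh, Pex11a and Eci2, had an unadjusted p under 0.05, against 4.43% of all genes lower. At 6 weeks 6 of 11 were lower, against 51% of all genes, with a median of -0.03. Ehhadh, the bifunctional enzyme of the peroxisomal route and a strong Ppara target, had 11.48, 13.67 and 13.46 in cadmium kidneys at 12 weeks, against 15.46, 15.58 and 14.33 in saline kidneys. The groups were apart, and the difference was -2.26 with a standard error of 0.69 and an adjusted p of 0.29. At 6 weeks its values of 13.76, 14.17 and 14.64 with cadmium lay among the saline values of 15.45, 15.08 and 12.84.

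Pex11a, which takes part in peroxisome division, had a lower mean with cadmium at both later times, without a call. At 12 weeks it had 7.49, 8.64 and 8.30 with cadmium, against 8.79, 9.66 and 9.61 with saline, a difference of -1.21 (adjusted p = 0.414). At 6 weeks it had 8.03, 9.49 and 8.27 with cadmium, against 9.70, 9.70 and 9.24 with saline, a difference of -0.95 (adjusted p = 0.505), and here the groups overlapped. For the mean of both times the difference was -1.08 with a standard error of 0.32 and an adjusted p of 0.234. Eci2, an isomerase for unsaturated chains, differed by -0.69 at 12 weeks with no overlap. The 3-ketoacyl-CoA thiolases Acaa1b and Acaa1a differed by -1.40 and -0.57, with overlap, and as near copies they may share signal. Crot, which makes carnitine esters for export from peroxisomes, differed by -0.64 at 12 weeks and by 0.45 at 6 weeks. The remaining peroxisomal genes stayed close to 0 at 12 weeks: Hsd17b4 at -0.16, Decr2 at -0.02, Acox3 at -0.01, Scp2 at -0.01 and Acox2 at 0.18.

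Among the 11 mitochondrial beta-oxidation genes, 10 had a lower mean at 12 weeks, against 48.9% of all genes, with a median of -0.68. Decr1, Hadhb, Acadvl and Hadha had an unadjusted p under 0.05, against 4.43% of all genes lower. Decr1 encodes the reductase needed for polyunsaturated chains. It had 9.23, 9.84 and 9.90 in cadmium kidneys at 12 weeks, against 10.90, 11.08 and 10.77 in saline kidneys. All cadmium arrays were below all saline arrays, and the difference was -1.26 with a standard error of 0.33 and an adjusted p of 0.166. At 6 weeks Decr1 had 9.91, 10.71 and 10.52 with cadmium, against 11.48, 11.63 and 10.47 with saline, a difference of -0.81 (adjusted p = 0.449) with overlap. For the mean of both times it was -1.04 (standard error 0.23, adjusted p = 0.0841) and was not called. Of 23 alternatives it passed in 3 and failed in the rest, with a limma adjusted p of up to 0.219. It passed with quantile normalization (0.0368), with array weights (0.011) and without saline replicate 3 of 6 weeks (0.0328).

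Hadha and Hadhb encode the subunits of the trifunctional protein, which carries out the later steps of long-chain oxidation. Hadhb had 11.93, 12.23 and 11.77 in cadmium kidneys at 12 weeks, against 12.76, 12.84 and 12.56 in saline kidneys, a difference of -0.75 (standard error 0.25, adjusted p = 0.339). Hadha had 13.53, 14.03 and 14.21 with cadmium, against 15.01, 14.56 and 14.38 with saline, a difference of -0.73 (adjusted p = 0.445). Both subunits were apart between the groups at 12 weeks, and neither was at 6 weeks, where they differed by -0.12 and 0.23 for Hadhb and Hadha. Acadvl, the very long chain acyl-CoA dehydrogenase, differed by -0.68 and Hadh, the short chain hydroxyacyl-CoA dehydrogenase, by -0.62, both without overlap. The other dehydrogenases had smaller differences, with Acadl, Acadm and Acads at -0.25, -0.13 and -0.14. Echs1, the short chain hydratase, was at 0.11. The thiolase Acaa2 differed by -1.27 with a 95% interval of -4.04 to 1.51, and its values ran from 8.63 to 14.63 over the 18 arrays. The isomerase Eci1 differed by -0.84 at 6 weeks (unadjusted p = 0.0494) and by -0.71 at 12 weeks.

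All 4 genes of the carnitine shuttle had a lower mean with cadmium at 12 weeks, against 48.9% of all genes, and none was called. Their median was -0.43 at 12 weeks and near 0 at 6 weeks, at 0.04. Cpt1a, which controls entry of long chains into mitochondria, had 10.56, 11.33 and 10.40 in cadmium kidneys at 12 weeks, against 11.55, 11.82 and 10.86 in saline kidneys. The groups overlapped, and the difference was -0.64 with a standard error of 0.48 (95% interval -1.66 to 0.38). At 6 weeks Cpt1a had 11.77, 12.33 and 11.22 with cadmium, against 11.92, 12.07 and 11.07 with saline, and at 1 day 11.64, 12.23 and 10.13 with cadmium, against 11.94, 11.27 and 12.03 with saline. Crat, the carnitine acetyltransferase, had 8.12, 8.81 and 8.83 with cadmium at 12 weeks, against 8.99, 9.29 and 8.95 with saline, a difference of -0.49 with no overlap (adjusted p = 0.492). Slc25a20, the carrier of acylcarnitines, differed by -0.38. Cpt2, which returns the chain to CoA inside mitochondria, had 8.20, 8.62 and 8.47 with cadmium at 12 weeks, against 8.52, 8.89 and 8.81 with saline, a difference of -0.30 with overlap.

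All 3 genes of electron transfer had a lower mean with cadmium at 12 weeks, against 48.9% of all genes, with a median of -0.55. Etfdh, which hands electrons to ubiquinone, had 10.90, 11.50 and 11.79 in cadmium kidneys, against 11.97, 12.33 and 12.24 in saline kidneys, a difference of -0.78 with no overlap (adjusted p = 0.459). Etfb, a flavoprotein subunit, had 10.79, 11.37 and 11.05 with cadmium, against 11.25, 11.61 and 11.99 with saline, a difference of -0.55 with overlap (adjusted p = 0.439). Its partner Etfa differed by -0.36. At 6 weeks the 3 genes differed by -0.11 to 0.15.

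Of the 4 regulators 2 were lower and 2 higher at 12 weeks, with a median of -0.17, and none was called. Ppara, the receptor itself, had 8.57, 9.03 and 7.56 in cadmium kidneys at 12 weeks, against 7.50, 8.88 and 8.77 in saline kidneys. The difference was 0.0026, but its 95% interval of -1.21 to 1.22 is wide, and its sign depended on the array left out. At 6 weeks Ppara had 8.44, 8.84 and 8.91 with cadmium, against 9.89, 9.03 and 8.95 with saline, a difference of -0.56 with a standard error of 0.57, and the nearest arrays of the groups were close. Ppargc1a, the coactivator that drives mitochondrial genes, had 13.29, 12.39 and 11.79 with cadmium at 12 weeks, against 11.97, 12.72 and 12.27 with saline, a difference of 0.17 with overlap. At 6 weeks it was 12.90, 13.13 and 12.18 with cadmium, against 12.66, 12.15 and 12.63 with saline. Rxra, the partner receptor, differed by -0.62 at 12 weeks (adjusted p = 0.638) and by -0.26 at 6 weeks.

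Pdk4, the kinase that holds back glucose oxidation when fat is burned, is also a Ppara target. At 6 weeks it had 5.24, 5.27 and 5.52 in cadmium kidneys, against 6.53, 6.29 and 5.40 in saline kidneys, a difference of -0.73 (standard error 0.26, unadjusted p = 0.012, adjusted p = 0.393). The third saline array lay within the cadmium range. At 12 weeks Pdk4 had 5.82, 5.35 and 5.58 with cadmium, against 5.86, 6.20 and 5.70 with saline, a difference of -0.33 with overlap.

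At 6 weeks the list as a whole lay near 0. Of 45 members 26 were lower, against 51% of all genes, the median was -0.03, against -0.0042 over all genes, and none was called, where the background was 0.0408% of all genes. Acsl3, Pdk4, Decr1 and Eci1 were lower and Cd36 was higher at an unadjusted p under 0.05, against 4.25% of all genes lower and 5.63% higher. The 4 lower members became 1 without saline replicate 1 (3.6% of all genes) and 2 without saline replicate 2 (5.68%) or cadmium replicate 1 (2.7%). The median was -0.22 without saline replicate 3 and 0.09 without saline replicate 2. Groups did not overlap for 7 members. Acsl3, Fabp1 and Ppara lay below, against 8.04% of all genes, and Cyp4a2, Cyp4a8, Acox2 and Cd36 lay above, against 10.5% of all genes.

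At 1 day no member was called, where the background was 0% of all genes, and no member had an unadjusted p under 0.05, against 1.96% of all genes. The median was -0.10, against -0.01 over all genes, and 32 of 45 were lower, against 54.9% of all genes. No member had groups apart, against 2.88% of all genes below and 2.35% above. The genes with the smallest p were Fabp1, which is at background, Ppargc1a, Cpt2 and Etfb. Ppargc1a had 12.21, 12.52 and 12.32 with cadmium, against 12.34, 12.94 and 13.20 with saline, a difference of -0.48 (95% interval -1.21 to 0.26). Cpt2 had 8.47, 9.07 and 8.02 with cadmium, against 9.25, 8.58 and 8.63 with saline, and Etfb had 11.20, 11.70 and 11.06 with cadmium, against 11.75, 11.39 and 11.56 with saline. All adjusted p-values were 1.00 after rounding. Ppara had 9.12, 9.16 and 7.25 with cadmium, against 9.76, 8.41 and 8.11 with saline, and Pdk4 had 5.24, 5.88 and 5.97 with cadmium, against 5.37, 5.60 and 5.57 with saline. Cadmium replicate 3 was the lowest array of the 18 for 14 of 45 members. Without it the median over members was 0.11, with 10 of 45 lower, and without saline replicate 1 it was 0.05, with 18 of 45 lower. Without cadmium replicate 2 the median was -0.37, with 40 of 45 lower, and without saline replicate 2 it was -0.23.

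Whether the cadmium change itself differed between times was tested for every gene. No member passed for 12 weeks against 6 weeks, where 0.0136% of all genes were called, for 12 weeks against 1 day (0.0408%) or for 6 weeks against 1 day (0.00906%). At an unadjusted p under 0.05, 5 members were lower and 0 higher for 12 weeks against 6 weeks, where 5.42% of all genes were lower and 4.61% higher. Those 5 became 12 without saline replicate 2 of 6 weeks (7.72% of all genes), and 9 and 8 without cadmium replicates 2 and 3 of 12 weeks (5.81% and 6.59%). They became 3 without saline replicate 2 of 12 weeks (6.19%) or cadmium replicate 1 of 6 weeks (3.53%), 2 without cadmium replicate 1 of 12 weeks (3.48%) and 1 without saline replicate 3 of 6 weeks (3.15%). For 12 weeks against 1 day 4 were lower and 0 higher, against 1.86% and 2.88% of all genes. Those 4 became 10 without cadmium replicate 3 of 1 day (3.79%), and 2 without saline replicate 3 of 1 day (2.15%), saline replicate 2 of 12 weeks (1.94%) or cadmium replicate 2 of 1 day (1.44%). For 6 weeks against 1 day 3 were lower and 1 higher, against 2.66% and 4% of all genes. Those 3 became 1 without saline replicate 1 of 6 weeks (2.48%), saline replicate 2 of 6 weeks (3.62%) or cadmium replicate 2 of 1 day (3.41%). For Mgll the change at 12 weeks was lower than that at 6 weeks by a difference of -1.28 (standard error 0.35, 95% interval -2.04 to -0.52, adjusted p = 0.371). That the Mgll change differs between times is therefore not shown by these arrays.

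The saline kidneys were also compared between times. Over saline kidneys alone, Mgll averaged 11.15 at 1 day, 11.57 at 6 weeks and 12.16 at 12 weeks, and the difference of 12 weeks from 1 day was 1.01 (adjusted p = 0.147). Decr1 in saline kidneys averaged 9.94 at 1 day, 11.19 at 6 weeks and 10.92 at 12 weeks. Acsl3 averaged 9.03, 9.34 and 8.84 at 1 day, 6 weeks and 12 weeks of saline, with a difference of -0.50 for 12 weeks from 6 weeks (adjusted p = 0.408). No member was called between saline times, where 0.503% of all genes were called for 6 weeks against 1 day, 0.29% for 12 weeks against 1 day and 0% for 12 weeks against 6 weeks. At an unadjusted p under 0.05, 5 members were higher at 6 weeks than at 1 day (Decr1, Acaa1a, Eci1, Pdk4 and Acsl3) and 0 lower, against 4.37% and 7.44% of all genes. The 5 became 1 without replicate 2 of 6 weeks (5.58%) or replicate 3 of 1 day (2.14%), and 2 without replicate 1 of 6 weeks (3.55%) or replicate 2 of 1 day (4.74%). At 12 weeks 3 members, Mgll, Ehhadh and Decr1, were higher than at 1 day and 0 lower, against 3.45% and 5.15% of all genes. The 3 became 6 without replicate 1 of 12 weeks (3.8%) and 7 without replicate 1 of 1 day (3.28%). Between 12 and 6 weeks Mgll was higher and Acsl3 lower, against 4.61% and 3.79% of all genes. The number higher became 5 without replicate 2 of 6 weeks (6.65% of all genes), and 3 and 2 without replicates 2 and 1 of 12 weeks (4.95% and 2.69%). It became 0 without replicate 3 of 6 weeks (2.23%) or of 12 weeks (5.84%). In each of these last fits 2 members were lower, against 2.36% and 3.6% of all genes.

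Proximal tubule markers were lower on some of the same arrays. The mean over the 45 members at 12 weeks was 10.18, 10.84 and 10.39 in the cadmium kidneys, against 10.86, 11.23 and 11.05 in the saline kidneys. The mean over 10 proximal tubule markers on these arrays was 14.94, 16.16 and 13.30 with cadmium, against 14.25, 16.71 and 16.66 with saline. All 10 markers had a lower mean with cadmium, with a median difference of -0.66, and none was called. Of 6 markers of the S3 segment, the straight part of the proximal tubule, 4 were lower and 2 higher at 12 weeks, with a median of -0.27 and none called. Their array means were 9.39, 10.25 and 11.07 with cadmium, against 11.10, 9.61 and 10.39 with saline, so cadmium replicate 3 and saline replicate 1 had the highest S3 mean of their groups. At 6 weeks all 6 S3 markers were higher with cadmium, with a median of 0.78 and none called. Of 10 markers of the distal nephron and collecting duct 9 were higher at 12 weeks (median 0.46, none called), with array means of 14.68, 13.27 and 13.49 with cadmium, against 13.11, 13.53 and 13.45 with saline. Of 6 endothelial markers 5 were lower (median -0.48, none called), with array means of 11.07, 10.62 and 9.91 with cadmium, against 10.70, 11.16 and 11.37 with saline. The part of these cell types in the members' differences was not tested. With the proximal tubule marker mean as a covariate, the median over members at 12 weeks was -0.33, against -0.55 without it. In that fit 11 members were lower and 2 higher at an unadjusted p under 0.05, against 4.51% and 4.41% of all genes. The Mgll difference was then -1.13 (adjusted p = 0.0461). The part of tubule content in the members' differences was not tested beyond these values. In an alternative added after the data were seen, cadmium replicate 3 and saline replicate 1, the arrays with the lowest mean of the 10 proximal tubule markers in their groups, were left out. Of the 45 members 24 then had groups apart, all below, against 19.3% of all genes below and 21.8% above, and the median was -0.62. With only 2 arrays per group, groups lie apart more often than with 3, so this count is not comparable with that of all arrays. Without these arrays the call of Mgll (-1.50, adjusted p = 0.072) and that of Acsl3 (-0.49, adjusted p = 0.0609) were lost.

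None of 12 clock genes was called for cadmium minus saline at any time or for the mean of 6 and 12 weeks. The pair Bmal1 and Dbp differed between arrays of the same group. Bmal1 minus Dbp, a pair that peaks at opposite hours, was 1.02, -5.43 and 0.73 in cadmium kidneys at 12 weeks, against 1.80, -0.17 and 2.70 in saline kidneys. At 6 weeks it was -7.15, -7.23 and 1.15 with cadmium, against -6.08, -5.87 and -6.73 with saline. At 1 day it was -6.85, -5.62 and -1.81 with cadmium, against -6.60, -6.21 and -6.49 with saline. Single arrays stood apart from their group at each time. The saline arrays also differed as a whole between times: all were at -5.87 or below at 1 day and 6 weeks, and at -0.17 or above at 12 weeks. Comparisons of 12 weeks with an earlier time, in saline kidneys or of the cadmium change, therefore also compare arrays that differ in this pair. With Bmal1 minus Dbp as a covariate, 8 members were higher in saline kidneys at 12 weeks than at 1 day (unadjusted p under 0.05). Without it 3 were higher, and all genes higher were 2.24% with it and 3.45% without. For the cadmium change, 7 members were lower for 12 weeks against 6 weeks and 8 against 1 day (7.28% and 1.93% of all genes). Without the covariate these were 5 and 4 (5.42% and 1.86%). No member went the other way in these fits. The part of this pair was not tested beyond these values. With the same covariate the Mgll change at 12 weeks was -1.44 (adjusted p = 0.0356), and the median over members was -0.64.

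**Figure D3:**
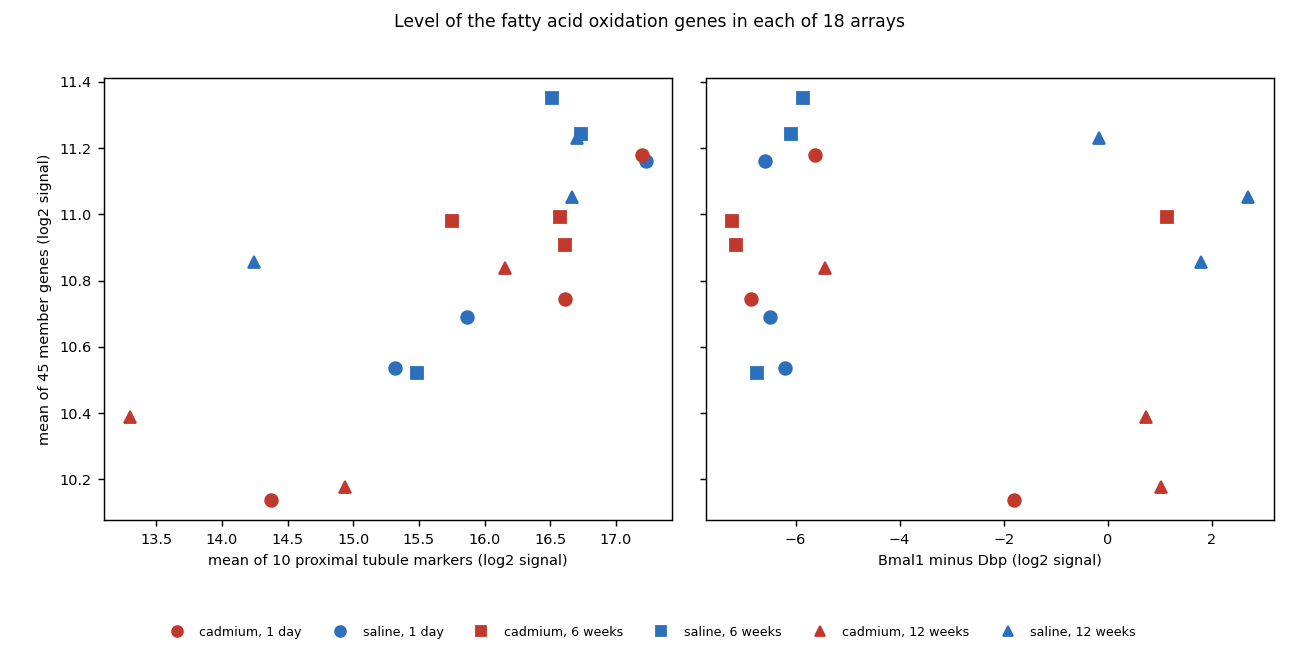
Mean log2 signal of the 45 members on each of the 18 arrays (vertical axis) against the mean of 10 proximal tubule markers (left) and against Bmal1 minus Dbp (right), both in log2 signal. Red is CdCl2, blue normal saline, and the shape gives the time. Arrays with low marker means, such as cadmium replicate 3 at 1 day with 14.37, also have low member means, while saline replicate 1 at 12 weeks, with 14.25, has a member mean of 10.86.

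Outside the list, 72 further genes of these pathways were measured. None was called at 1 day, 6 weeks or 12 weeks, and 1, G0s2, was called lower for the mean of 6 and 12 weeks. G0s2 encodes an inhibitor of the lipase Pnpla2 and is a known Ppar target. At 6 weeks it had 8.31, 9.35 and 8.77 in cadmium kidneys, against 9.85, 10.08 and 10.16 in saline kidneys. At 12 weeks it had 8.25, 8.38 and 8.14 with cadmium, against 8.66, 9.33 and 8.83 with saline. The groups were apart at both times, with differences of -1.22 (adjusted p = 0.13) and -0.68 (adjusted p = 0.418). Over both times G0s2 was lower with cadmium by 0.95 (standard error 0.18, limma adjusted p = 0.0343). That call was lost with quantile normalization (0.0623), with only the 12 arrays of 6 and 12 weeks (0.0655), without the 2 arrays of low marker mean (0.0579) and when any of those 12 arrays was left out other than saline replicate 1 of 12 weeks and cadmium replicate 2 of 6 weeks. In the fits without 1 array that lost it the adjusted p was 0.0678 to 0.1.

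Of 23 other Ppar targets, 17 were lower at 12 weeks, against 48.9% of all genes, with a median of -0.28. At 6 weeks 12 were lower, against 51% of all genes, with a median of -0.01. Vnn1, a pantetheinase induced by Ppara, differed by -1.87 at 12 weeks (adjusted p = 0.418). The isomerase Ech1 and the very long chain synthetase Slc27a2 differed by -0.87 and -0.99. The smallest p at 12 weeks was that of Pipox, a peroxisomal oxidase, with a difference of 0.50 (adjusted p = 0.0975), whose signal of 4.23, 4.17 and 4.36 with cadmium, against 3.68, 3.76 and 3.82 with saline, lies at the background level. Hao2, a peroxisomal hydroxy acid oxidase, differed by -0.43. Genes of fatty acid synthesis had a median of -0.06 at 12 weeks, with 9 of 16 lower, and other nuclear receptors and coactivators had a median of -0.04, with 10 of 14 lower. Other peroxisomal genes had a median of -0.11, with 10 of 14 lower, and ketone body genes had 0.20, with 2 of 5 lower.

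**Figure D4:**
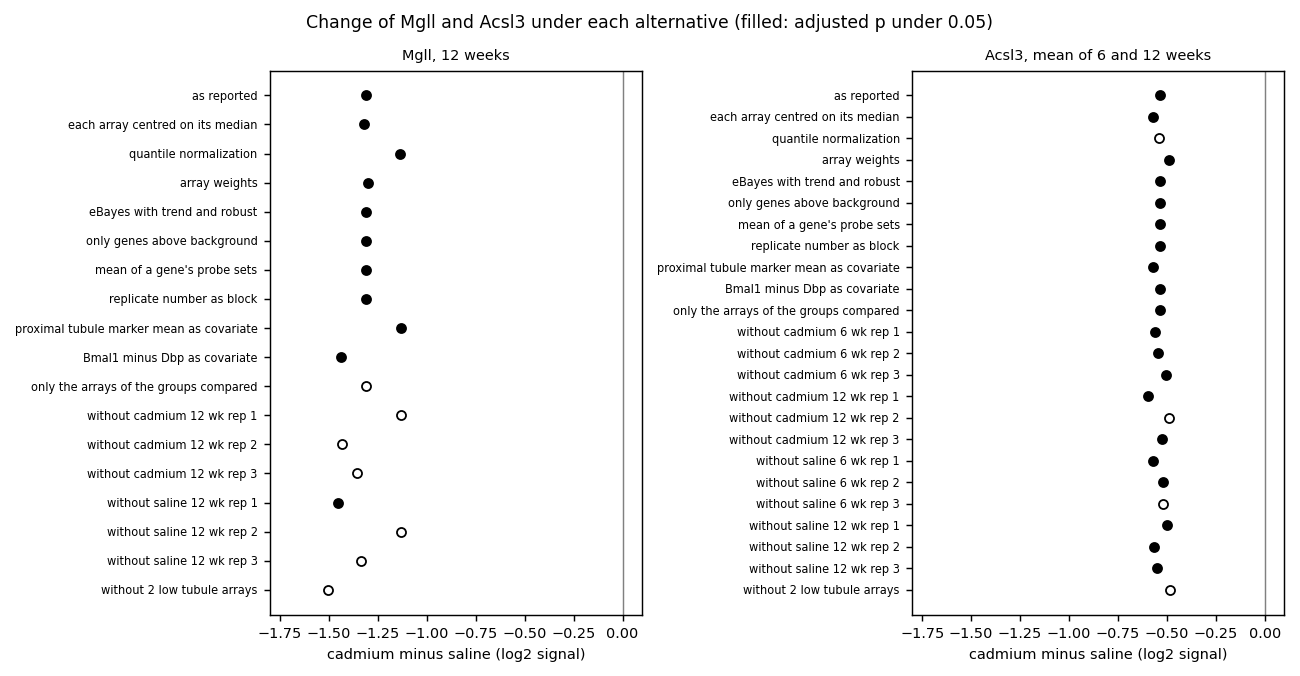
Cadmium minus saline in log2 signal for Mgll at 12 weeks (left) and Acsl3 for the mean of 6 and 12 weeks (right) as reported and under each alternative, with filled points where the adjusted p was under 0.05. Mgll stayed between -1.50 and -1.13 and passed in 10 of 17 alternatives, and Acsl3 stayed between -0.60 and -0.49 and passed in 19 of 23.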

How the data were processed

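Rat kidney RNA was measured on 18 Affymetrix arrays after biotin labelling, per the labels' protocols. What the authors deposited is a log2 signal for each probe set, and how the authors summarized and normalized them is not given in the sources used here. Of 70570 probe sets, 23437 name 1 gene in the platform annotation, 505 name several and 46628 none. A gene was represented by its brightest probe set naming only that gene (22084 genes, 1182 with a choice). Group means of all 18 arrays were fitted with limma 3.58.1 in R 4.3.3 (12 residual and 2.45 prior degrees of freedom), 10 contrasts were tested, and p-values were adjusted by Benjamini-Hochberg over all genes within each contrast. The labels call the arrays biological replicates but tie none to a named animal. Arrays have no read depth, and their number limits the precision. Values on every array are given for members called in any contrast, for the 4 with the smallest p in each cadmium contrast, and for Ppara, Ppargc1a, Pdk4 and Cpt1a, with a few further members of each role chosen after their values were seen. Other pathway genes are named where called, or as up to 4 per contrast with the smallest p, and Vnn1 was added after its values were seen. The members and lists were chosen with earlier results of these data known. Some genes of these pathways are not reported here. Promoters came from RefSeq (GRCr8) and matched 42 of 46 listed genes by symbol, but not Cyp4a1, Acadl, Acaa2 and Decr1. Alternatives tried were other scalings, array weights, covariates, filters and fewer arrays.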

Additional observations from a re-analysis of the deposited data

Results flagged for a closer look

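Cyp4a2, an omega hydroxylase, was the only member whose cadmium arrays lay above all saline arrays at 6 weeks and below all of them at 12 weeks. The change at 12 weeks minus the change at 6 weeks was -0.31 in log2 signal, and the test of this difference did not pass after adjustment. At 12 weeks its signal was 19.18, 19.92 and 19.92 with cadmium, against 19.93 on each saline array. The values lie at the ceiling of the scale on most arrays, where the order of arrays carries little.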

How the results depend on the processing

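The median over members at 12 weeks stayed below 0 under every alternative run, from -0.64 with Bmal1 minus Dbp as a covariate to -0.33 with the proximal tubule covariate. The number of members called at 12 weeks, 1 as reported, was 0 with only the compared arrays and without the arrays of low marker mean, and 0 to 1 when single arrays were left out. At 6 weeks, where 0 was reported, it was 3 with array weights and 1 with Bmal1 minus Dbp as a covariate. For the mean of 6 and 12 weeks, 1 as reported, it was 4 with array weights, 0 without the arrays of low marker mean and 0 to 1 when single arrays were left out. Between saline times 0 was reported, against 1 for 6 weeks minus 1 day with quantile normalization and with array weights, and 1 for 12 weeks minus 1 day with array weights and with the proximal tubule covariate. Calls over all genes ran under the alternatives from 8 to 341 for 6 weeks minus 1 day (111 as reported). For 12 weeks minus 1 day they ran from 0 to 131 (64 as reported). The cause was not tested. With the replicate number as a block, 1 member was called at 12 weeks and 1 for the mean, as without it, while calls over all genes were 52 at 12 weeks (72 without the block), 3 at 6 weeks (9) and 51 for the mean (87). Deviations of arrays with the same number correlated at -0.501 to 0.489, over 0.1 in 3 of 9 pairs, so the numbers were not taken as pairs. Over all genes the 12-week count ran from 0 with only the 6 arrays to 127 with array weights, that at 6 weeks reached 500 with array weights, and that for the mean ran from 39 to 396. Signs turned for genes near 0: Ppara at 1 day (-0.25 as reported) was 0.11 with array weights and -0.58 to 0.38 with single arrays left out. Pdk4 at 1 day was -0.014 with array weights, and Cpt1a at 1 day was -0.86 to 0.19 with single arrays left out. Cpt1a at 6 weeks was -0.076 with quantile normalization, -0.060 with array weights and -0.22 to 0.37 with single arrays left out. Ppara at 12 weeks was -0.0098 with median centring, -0.23 with array weights, -0.25 with Bmal1 minus Dbp, -0.026 without the arrays of low marker mean and -0.44 to 0.42 with single arrays left out. Ppargc1a at 12 weeks was -0.010 with array weights and -0.23 to 0.52 with single arrays left out. Ppara for the mean of both times was 0.021 with the proximal tubule covariate. Signals near the background and at the ceiling limit what can be read from Fabp1, Pipox and Cyp4a2.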

Other observations

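Cyp4a3, listed but not counted among the 45 members, shares its probe set with Cyp4b1. That probe set had 11.06, 11.84 and 11.84 in cadmium kidneys at 12 weeks, against 11.90, 11.85 and 11.81 in saline kidneys, and the first cadmium array stood apart from the rest. The same array, cadmium replicate 1 at 12 weeks, held the lowest value of all 18 arrays for 19 of the 45 members, and saline replicate 2 at 12 weeks held the highest for 12. Without that cadmium array, 7 members were lower at 12 weeks at an unadjusted p under 0.05, against 14 with it.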
